A study of Mus musculus with 10 samples.

Results

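Proneural and neuronal basic helix-loop-helix (bHLH) transcription factors were followed in the lumbar spinal cord of 10 mouse embryos at E12.5. The set had 9 genes, *Atoh1*, *Neurog1*, *Neurog2*, *Ptf1a*, *Neurod4*, *Nhlh1*, *Neurod1*, *Neurod2* and *Neurod6*, taken by name from the 54146 genes of the count table. They were placed in their known order from progenitor to postmitotic expression, which sets no order among *Atoh1*, *Neurog1*, *Neurog2* and *Ptf1a*. Whole lumbar cords with the dorsal root ganglia still attached gave 1 polyA RNA-seq library per embryo. The embryos came from 2 litters. In litter 1 (labels such as Ctr_181-4), 3 controls carried 2 floxed *Dot1l* alleles and no cre, and 3 *Dot1l*-cKO embryos carried 2 floxed alleles and 1 copy of Wnt1cre2. In litter 2 (labels such as Ctr_190-5), 2 controls carried 1 floxed allele and no cre, and 2 *Dot1l*-cKO embryos carried 2 floxed alleles and 1 copy of Wnt1cre2. DOT1L is the methyltransferase of histone H3 lysine 79, and Wnt1cre2 drives cre in the dorsal neural tube and the neural crest, so that cells of the ventral cord in a *Dot1l*-cKO embryo can keep the gene. The strain is given for all embryos as B6.Cg-E2f1Tg(Wnt1-cre)2Sor/J, a line named for a transgene at *E2f1*, and only *Dot1l*-cKO embryos carry that transgene. Loss of *Dot1l* and presence of the transgene therefore cannot be told apart.

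bHLH factors bind DNA as pairs, mostly with a ubiquitous E protein, at a short motif called the E-box. Proneural members switch on in dividing progenitors, push cells out of the cycle and induce Notch ligands that hold back the neighbours, while Hes and Hey repressors and Id proteins restrain them. The factors then hand over to one another as the young neuron matures, from proneural genes in the ventricular zone to Neurod genes in the mantle. In the spinal cord *Atoh1* marks the progenitors of dI1 interneurons, *Neurog1* and *Neurog2* act in several dorsal and ventral domains and in the precursors of sensory ganglia, and *Ptf1a* directs progenitors towards inhibitory dI4 neurons. *Neurod4* comes on in cells about to leave the cycle, *Nhlh1* and *Neurod1* in newborn neurons, and *Neurod2* and *Neurod6* in postmitotic neurons.

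The libraries held 40949585 to 68928443 counts assigned to genes. *Dot1l* itself stood at 87.6 to 107 CPM (counts scaled to the size of the library) in the 5 controls and at 97.8 to 112 CPM in the 5 *Dot1l*-cKO embryos, over the whole gene. Its log2 fold change was 0.17 ± 0.06 (SE, Benjamini-Hochberg adjusted p = 0.13 from edgeR's quasi-likelihood F test), so the counts do not check the deletion, which removes only part of the gene. Both *Dot1l*-cKO embryos of litter 2 had 6 and 6.79 CPM of *Xist* and 172 and 156 CPM over 4 Y-linked genes, whereas the other 8 embryos had 499 to 890 CPM of *Xist* and at most 1.16 CPM of the Y-linked genes. Within litter 2, sex and genotype therefore cannot be told apart. Markers of the forebrain, a tissue rich in *Neurod2* and *Neurod6*, summed to 0.183 to 0.501 CPM over 5 genes, and 9 lumbar Hox genes summed to 696 to 917 CPM.

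All 9 members were detected in every embryo and all entered the test. Levels between genes were compared as CPM per kilobase of exon, which takes out gene length. In litter 1 *Neurod6* stood highest at 45.9 ± 7.71 CPM per kilobase (SD, n = 6), followed by *Nhlh1* at 39.2 ± 3.68, and the ranges of these neighbours overlapped. After a gap came *Neurod1* at 14.8, *Neurod2* at 12.4 and *Neurog2* at 9.61 CPM per kilobase, each overlapping the next in range, and then *Neurod4* at 6.24 and *Neurog1* at 4.47. *Atoh1* at 0.607 and *Ptf1a* at 0.357 CPM per kilobase were the lowest, with overlapping ranges. The order was different in litter 2, where *Nhlh1* led alone at 47.8 ± 3.16 CPM per kilobase (SD, n = 4). *Neurod1* at 17.8, *Neurog2* at 17.1, *Neurod6* at 16.9 and *Neurod4* at 14.2 CPM per kilobase followed, each overlapping its neighbour. *Neurod2* dropped from the fourth place in litter 1 to the seventh in litter 2, below *Neurog1*, at 5.42 CPM per kilobase against 9.64. *Atoh1* at 1.26 and *Ptf1a* at 1.15 were again the lowest. *Ptf1a* rested on 20 to 92 counts per embryo and *Atoh1* on 36 to 144, so their values carry the most counting error.

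The members are spread over the genome (GRCm38, GENCODE annotation). *Atoh1* and *Neurod6* lie on chromosome 6 (chr6:64729125-64731245 on the plus strand and chr6:55677822-55681263 on the minus strand), and *Ptf1a* and *Neurod1* on chromosome 2 (chr2:19445663-19447501, plus, and chr2:79452521-79456751, minus). *Neurog1* lies at chr13:56250478-56252163 (minus), *Neurog2* at chr3:127633135-127635631 (plus), *Neurod4* at chr10:130268152-130280240 (minus), *Nhlh1* at chr1:172052292-172057573 (minus) and *Neurod2* at chr11:98325415-98329648 (minus). Exons of *Ptf1a* share 609 bases with *Ptf1aos* on the opposite strand, and exons of *Neurod1* share 355 bases with *Cerkl* and *Gm26755*. Whether counting took account of strand is not given in the sources used here, so reads over those bases cannot be assigned with certainty. Exons of the other 7 members overlap no other gene.

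Because bHLH factors bind E-boxes and several members are known to regulate one another, the 250 bases before each RefSeq start site (GRCm38.p6) were searched for CANNTG, which reads the same on both strands. The motif was absent from the windows of *Atoh1*, *Neurog1*, *Neurog2*, *Ptf1a* and *Neurod4*, present at 1 position in *Nhlh1* and *Neurod1*, at 2 in *Neurod6* and at 3 in *Neurod2*. Of all 32851 mouse promoters of that length 66.2% held it, and 14.4% held the form CAGATG or CATCTG on which Neurod and Neurog proteins act in many known targets. Below are the windows of *Neurod2* and *Neurod6*, the members that moved in both comparisons, of *Nhlh1*, the newborn-neuron factor whose window holds the CAGATG form, and of *Neurog2* as a proneural member without a match. All are written 5′ to 3′ on the gene's strand, with E-boxes in capitals.
*Neurod2*, chr11:98329646-98329895, minus: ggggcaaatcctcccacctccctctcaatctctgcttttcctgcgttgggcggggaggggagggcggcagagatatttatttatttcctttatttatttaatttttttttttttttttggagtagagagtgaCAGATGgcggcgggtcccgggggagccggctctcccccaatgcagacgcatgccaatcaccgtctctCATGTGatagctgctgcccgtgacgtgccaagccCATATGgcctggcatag
*Neurod6*, chr6:55681264-55681513, minus: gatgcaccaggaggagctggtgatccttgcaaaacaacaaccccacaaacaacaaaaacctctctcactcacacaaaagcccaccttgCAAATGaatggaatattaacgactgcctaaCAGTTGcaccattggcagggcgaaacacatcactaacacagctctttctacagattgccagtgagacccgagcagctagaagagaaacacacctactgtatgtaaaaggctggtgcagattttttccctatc
*Nhlh1*, chr1:172057597-172057846, minus: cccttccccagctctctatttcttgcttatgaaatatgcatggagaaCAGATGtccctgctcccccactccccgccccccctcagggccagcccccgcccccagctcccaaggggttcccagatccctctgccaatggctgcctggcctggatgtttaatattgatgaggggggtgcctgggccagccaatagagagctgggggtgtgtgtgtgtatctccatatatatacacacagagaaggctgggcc
*Neurog2*, chr3:127632886-127633135, plus: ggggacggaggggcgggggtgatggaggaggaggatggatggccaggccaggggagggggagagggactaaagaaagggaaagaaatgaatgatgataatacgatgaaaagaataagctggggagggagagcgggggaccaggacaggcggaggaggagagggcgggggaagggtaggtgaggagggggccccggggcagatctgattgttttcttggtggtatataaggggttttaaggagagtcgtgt
In *Neurod2* the CAGATG lies 118 bases before the start site, CATGTG 51 and CATATG 17 bases before it, and in *Neurod6* the CAAATG lies 162 and the CAGTTG 132 bases before it. The CAGATG of *Nhlh1* lies 203 bases before its start. A match describes the letters of these short windows and says nothing about binding in the embryos.

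The larger difference in the members was between litters. Litter 2 had more RNA of the progenitor factors *Atoh1*, *Neurog1*, *Neurog2*, *Ptf1a* and *Neurod4* and less of the postmitotic factors *Neurod2* and *Neurod6*, with the newborn-neuron factors *Nhlh1* and *Neurod1* in between. In a model with genotype and litter terms, 6 of 9 members were higher and 2 were lower in litter 2 (adjusted p below 0.05, edgeR's quasi-likelihood test). Of all 19773 genes tested 34.7% were called in this comparison, 16.9% higher and 17.8% lower. With scaling by library size alone the split over all genes moved from 48.7% to 37.2% of calls higher, while every member kept its direction. For 7 of 9 members no embryo of one litter reached the range of the other, which held for 23.4% of all genes tested. In bulk RNA, fewer cells expressing a gene and less RNA per cell cannot be told apart.

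**Figure D1:**
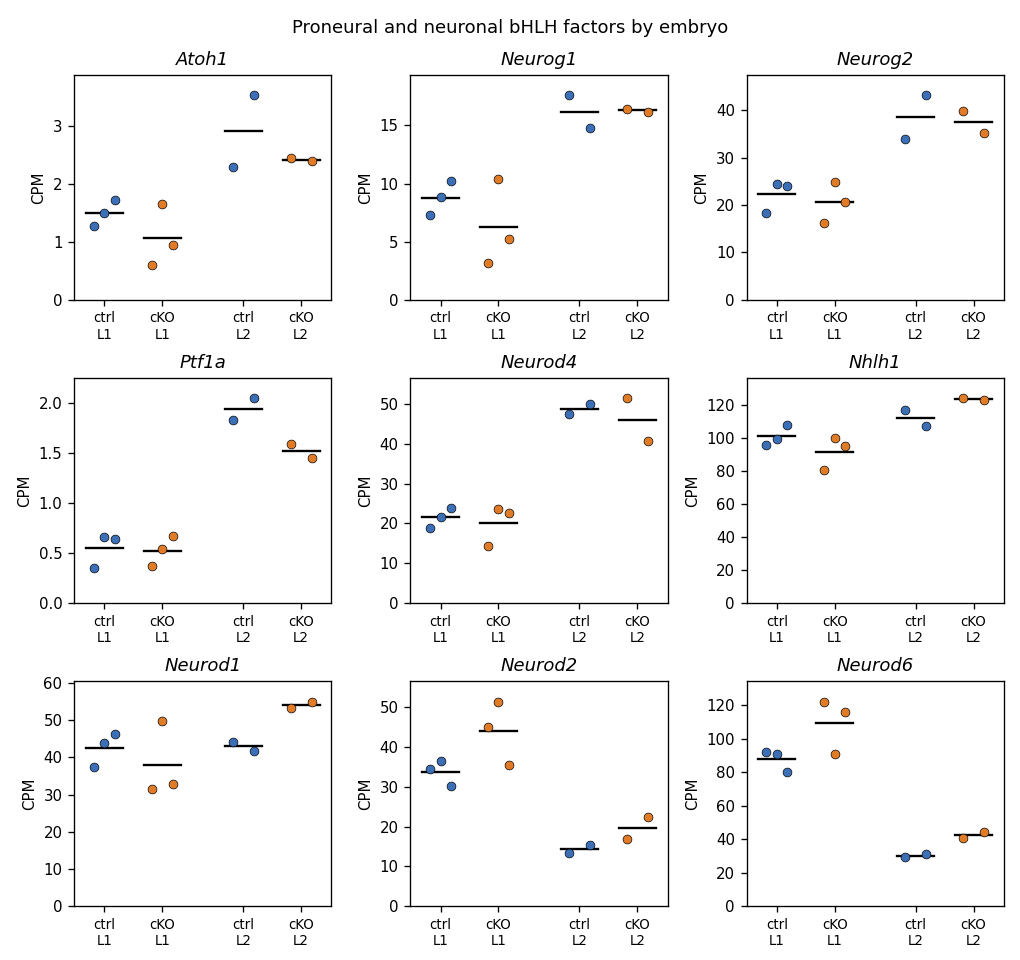
Level of each bHLH factor in CPM (vertical axis, linear and starting at 0, its scale differing between panels) in every embryo, with controls in blue and *Dot1l*-cKO embryos in orange for litter 1 (L1) and litter 2 (L2). Each point is 1 embryo and each line a group mean. *Atoh1*, *Neurog1*, *Neurog2*, *Ptf1a* and *Neurod4* lay higher in every embryo of litter 2, and *Neurod2* and *Neurod6* lay lower.

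*Atoh1* stood at 1.28, 1.51 and 1.72 CPM in the controls and 0.599, 1.66 and 0.941 CPM in the *Dot1l*-cKO embryos of litter 1. In litter 2 it reached 2.29 and 3.54 CPM in the controls and 2.45 and 2.4 CPM in the *Dot1l*-cKO embryos. Every embryo of litter 2 was above every embryo of litter 1, and the log2 fold change was 1.07 ± 0.23 (SE, adjusted p = 0.00221, edgeR). *Neurog1*, the partner of *Neurog2* in sensory and dorsal progenitors, ran from 3.18 to 10.4 CPM with a median of 8.06 in litter 1, and litter 2 gave 17.6, 14.8, 16.4 and 16.2 CPM. The log2 fold change was 1.14 ± 0.23 (adjusted p = 0.00159, edgeR), with no overlap between litters.

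*Neurog2*, which is also expressed in motor neuron progenitors, had 18.4, 24.4 and 24.1 CPM in controls and 16.2, 24.8 and 20.7 CPM in *Dot1l*-cKO embryos of litter 1. Its 4 embryos of litter 2 had 34, 43.2, 39.9 and 35.3 CPM, a rise of 0.83 ± 0.11 on the log2 scale (adjusted p = 7.08e-05, edgeR). *Ptf1a* showed the largest rise of the 9. It lay between 0.351 and 0.67 CPM in the 6 embryos of litter 1 and at 1.83, 2.05, 1.59 and 1.45 CPM in litter 2, a log2 fold change of 1.67 ± 0.21 (adjusted p = 4.23e-05, edgeR). *Neurod4*, which follows the proneural genes at cell cycle exit, had 14.4 to 23.9 CPM in litter 1 and 47.5, 49.9, 51.4 and 40.8 CPM in litter 2, a log2 fold change of 1.18 ± 0.12 (adjusted p = 5.53e-06, edgeR).

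The newborn-neuron factors differed least. *Nhlh1*, the most abundant member per length over all embryos, ran from 80.5 to 108 CPM in litter 1 and had 117, 107, 124 and 123 CPM in litter 2. The litters overlapped narrowly, and the log2 fold change was 0.29 ± 0.07 (adjusted p = 0.0052, edgeR). *Neurod1* ran from 31.5 to 49.8 CPM in litter 1 and had 44.1, 41.8, 53.2 and 55 CPM in litter 2. Its litter difference of 0.27 ± 0.13 did not pass the test (adjusted p = 0.12, edgeR), and the litters overlapped.

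*Neurod2* and *Neurod6* went the other way. In litter 1 *Neurod2* had 34.4, 36.4 and 30.2 CPM in controls and 45, 51.4 and 35.6 CPM in *Dot1l*-cKO embryos. In litter 2 it had 13.3 and 15.5 CPM in controls and 17 and 22.4 CPM in *Dot1l*-cKO embryos, so that all of litter 2 lay below all of litter 1. It fell by 1.19 ± 0.11 on the log2 scale (adjusted p = 3.01e-06, edgeR). *Neurod6*, its close relative, had 92.2, 90.8 and 80.2 CPM in controls and 122, 90.5 and 116 CPM in *Dot1l*-cKO embryos of litter 1. It had 29.1 and 30.9 CPM in controls and 40.8 and 44.2 CPM in *Dot1l*-cKO embryos of litter 2. Its log2 fold change of -1.46 ± 0.08 (adjusted p = 1.61e-07, edgeR) was the largest fall among the members, and again the litters did not overlap.

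**Figure D2:**
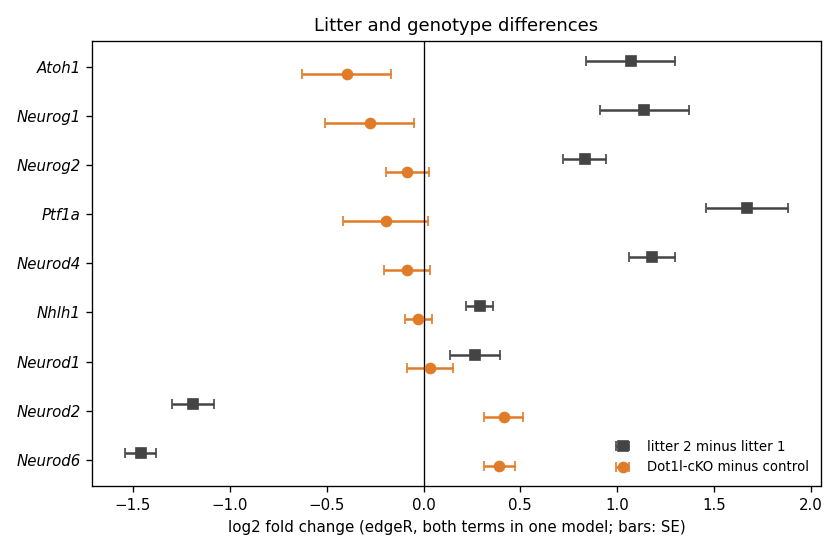
Log2 fold change of each bHLH factor (horizontal axis) between litters (grey squares, litter 2 minus litter 1) and between genotypes (orange circles, *Dot1l*-cKO minus control) from one edgeR model over 10 embryos, with bars of 1 SE. From *Atoh1* at the top to *Neurod6* at the bottom the litter difference passes from 1.07 to -1.46, and *Neurod2* and *Neurod6* lie to the right for genotype at 0.41 and 0.39.

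The litter difference was also taken within each genotype, from a model with 4 groups of litter and genotype. Among controls, which differ between litters by 1 floxed allele as well, 4 members were higher (*Atoh1*, *Neurog2*, *Ptf1a* and *Neurod4*) and 2 lower (*Neurod2* and *Neurod6*), against 24.2% of all genes called. *Atoh1* lay at the threshold (0.95 ± 0.32, adjusted p = 0.04996, edgeR) and passed only without Mut_181-2 or Mut_181-3 when each embryo was left out. Without Ctr_190-7, *Neurog2* was not called either (0.61 ± 0.2, adjusted p = 0.0761, edgeR). Among *Dot1l*-cKO embryos, which carry the same alleles in both litters but differ in sex, 7 were higher and 2 were lower, against 21.3% of all genes. *Ptf1a* was higher by 1.82 ± 0.31 among controls and by 1.52 ± 0.3 among *Dot1l*-cKO embryos, and *Neurod6* had log2 fold changes of -1.55 ± 0.12 and -1.37 ± 0.11. *Neurog1* differed by 0.88 ± 0.32 among controls (adjusted p = 0.0607, edgeR) and by 1.38 ± 0.32 among *Dot1l*-cKO embryos (adjusted p = 0.00798). Among controls it was called by limma-voom, and by edgeR without Mut_181-2 (adjusted p = 0.0145) or Mut_181-3 (adjusted p = 0.00252). *Nhlh1* and *Neurod1*, at 0.15 ± 0.09 and 0.01 ± 0.16 among controls, passed the test among *Dot1l*-cKO embryos, at 0.43 ± 0.09 and 0.51 ± 0.15 (adjusted p = 0.00343 and 0.0321, edgeR). When each embryo was left out, the call of *Neurod1* among *Dot1l*-cKO embryos was lost without any of 6 (Mut_181-2, Mut_181-7, Ctr_190-5, Ctr_190-7, Mut_190-4 or Mut_190-6), with adjusted p of 0.0509 to 0.161 by edgeR. That of *Atoh1* was lost without any of 4 (Mut_181-2, Mut_181-7, Mut_190-4 or Mut_190-6), with adjusted p of 0.0566 to 0.108, and that of *Neurog1* without Mut_190-4 (adjusted p = 0.0589). The change of these litter differences with genotype is the interaction given further on, which no member passed.

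Genes around the bHLH factors are described by their counts, beside the 34.7% of all genes called for litter and an all-gene median of -0.02 on the log2 scale. All 8 neural progenitor markers were higher in litter 2, with a median log2 fold change of 0.52, among them *Nes* (0.81), *Notch1* (0.67) and *Pax6* (0.64). Of 15 known targets of proneural factors, 11 were higher and 4 lower (median 0.46). The Notch ligands *Dll1* (0.80) and *Dll3* (0.61), the Hes antagonist *Hes6* (0.65), *Btbd17* (0.65) and *Insm1* (0.63) rose. Smaller rises were those of *Mfng* (0.53), *Gadd45g* (0.52), *Rnd2* (0.46), *Myt1* (0.26), *Srrm4* (0.26) and *St18* (0.17). *Ebf3* (-0.52) and *Ebf2* (-0.39), which act in neurons already leaving the ventricular zone, fell, as did *Dll4* (-0.37), a ligand also of blood vessels, and *Cbfa2t3* (-0.22).

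Among Hes and Hey repressors, 3 of 6 were higher (*Hes5* 0.95, *Hes3* 0.91 and *Hes1* 0.27) and *Hey2* was lower (-0.95). Both E protein partners tested, *Tcf3* (0.45) and *Tcf12* (0.39), were higher, and none of the 4 Id inhibitors was called, their largest value being 0.15 for *Id1* (adjusted p = 0.552, edgeR). No Id gene had an unadjusted p below 0.05, and DESeq2 and limma-voom called 0 as well. Of 12 other neural bHLH genes, 5 were higher and 2 lower. Rises included those of *Neurog3* (0.85), *Bhlhe23* (0.61), *Tal1* (0.54) and *Nhlh2* (0.39). *Olig1* (-2.32) and *Olig2* (-0.51), factors of the motor neuron and oligodendrocyte domain, were lower.

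**Figure D3:**
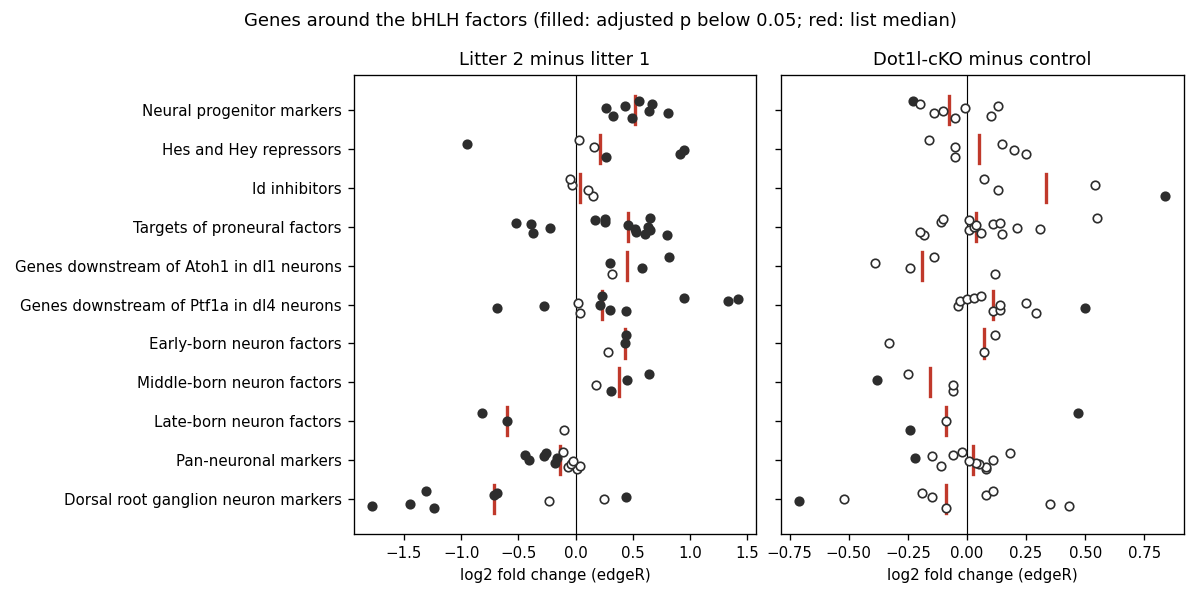
Log2 fold change (horizontal axis) of genes in 11 lists around the bHLH factors, between litters on the left and between genotypes on the right, on scales that differ between the panels. Each point is 1 gene, filled where the edgeR adjusted p is below 0.05, and each red line is the list's median, which for the 8 progenitor markers is 0.52 between litters and -0.08 between genotypes.

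Downstream of *Atoh1*, 3 of 4 dI1 genes were higher in litter 2, *Lhx9* by 0.82, *Barhl2* by 0.58 and *Lhx2* by 0.30. Downstream of *Ptf1a*, 7 of 11 genes of dI4 neurons were higher and 2 lower. *Kirrel2* (1.42), a direct target in the neural tube, *Prdm13* (1.33) and *Nphs1* (0.95) stood closest to the value of *Ptf1a*, whereas *Lhx1*, *Lhx5*, *Tfap2b* and *Gad2* rose by 0.44 or less and *Gbx1* (-0.69) and *Gad1* (-0.28) fell. Factors known for the birth order of spinal neurons also differed. *Onecut2* and *Onecut3*, factors of early-born neurons, were higher (0.43 and 0.44), as were 3 of 4 middle-born factors, *Zfhx4* (0.64), *Zfhx3* (0.45) and *Pou2f2* (0.31). The late-born factors *Nfix* (-0.82) and *Nfib* (-0.60) were lower, as *Neurod2* and *Neurod6* were.

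Other cell types also differed between litters. Of 12 pan-neuronal markers 6 were lower in litter 2 (median -0.13). Of 9 markers of dorsal root ganglion neurons 6 were lower and 1 higher (median -0.71), with summed levels of 615 to 942 CPM in litter 1 and 376 to 512 CPM in litter 2, and 3 of 5 neural crest glia markers were lower. Erythroid markers summed to 636 to 748 CPM in litter 1 and 1010 to 1520 CPM in litter 2, with 3 of 5 higher. Of 9 lumbar Hox genes 5 were higher (median 0.22). Of 4 endothelial markers 2 were lower, with a median of -0.28 and a range of -0.48 to -0.22 over all 4. Motor neuron markers (1 of 5 higher, 1 lower) and mesenchyme markers (2 of 8 higher, 1 lower) had calls in both directions. No skeletal muscle or microglia marker was called by edgeR or DESeq2, nor was *Tbr1*, the forebrain marker that could be tested, and none of them had an unadjusted p below 0.05, while limma-voom called 2 muscle markers. The part of these cell types in the members' values was not tested.

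For the 8 members called for litter or genotype, which leaves out *Neurod1*, the genes with the closest profile over the 10 embryos were sought by the root mean square difference of centred log2 CPM, a description with no test. Closest to *Neurog2* was *Nsl1* (0.0906 on the log2 scale), and closest to *Neurod4* were *Dlgap5* (0.0966), *Msx3* (0.0999) and *Ect2* (0.101). *Msx3* is a dorsal progenitor factor, and *Nsl1*, *Dlgap5* and *Ect2* act in mitosis and cell division. *Neurog1* lay closest to *Pax7* (0.247), a marker of dorsal progenitors, and *Atoh1* to the mitotic gene *Ncapg* (0.212). *Ptf1a* lay closest to *Usp44* (0.222), with its target *Kirrel2* second (0.258). *Nhlh1* lay closest to *Scube1* (0.0521). *Neurod2* lay near the NMDA receptor gene *Grin1* (0.153) and the synuclein gene *Sncb* (0.16), after *Gm49743* (0.151), and *Neurod6* near *Ndrg2* (0.105), *Ak5* (0.119) and *Trank1* (0.121).

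The study's question was how loss of DOT1L affects spinal cord neurogenesis, and between genotypes the postmitotic factors were the members that passed the test. *Neurod2* was 1.33-fold and *Neurod6* 1.31-fold higher in *Dot1l*-cKO embryos with litter in the model, log2 fold changes of 0.41 ± 0.1 and 0.39 ± 0.08 (SE, adjusted p = 0.0461 and 0.027, edgeR's quasi-likelihood test). These were 2 of 9 members called, both higher, where 2.99% of all genes were called and 1.9% were called higher. Over the 5 controls and 5 *Dot1l*-cKO embryos pooled across litters, the ranges overlapped for all 9 members, as they did for all but 1.93% of genes.

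For the 7 other members no difference was called. *Atoh1* had the largest estimate, -0.40 ± 0.23 (adjusted p = 0.334, edgeR), followed by *Neurog1* at -0.28 ± 0.23 (adjusted p = 0.518) and *Ptf1a* at -0.20 ± 0.22 (adjusted p = 0.641). The errors of these 3 genes were large enough to hide changes of the size seen in *Neurod2*. *Neurog2* (-0.08 ± 0.11), *Neurod4* (-0.09 ± 0.12), *Nhlh1* (-0.03 ± 0.07) and *Neurod1* (0.03 ± 0.12) had smaller estimates, with adjusted p of 0.71, 0.719, 0.854 and 0.901.

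Within litter 1 no member was called, against 0.612% of all genes. *Neurod2* had a log2 fold change of 0.39 ± 0.13 (adjusted p = 0.178, edgeR) and *Neurod6* of 0.32 ± 0.1 (adjusted p = 0.138), and these 2 members had an unadjusted p below 0.05, as did 15.4% of all genes. DESeq2 called *Neurod6* within this litter and limma-voom called 0 members. Controls and *Dot1l*-cKO embryos overlapped in every member, where 18.6% of all genes had no overlap. The overlap of *Neurod6* came from embryo Mut_181-3, whose 90.5 CPM lay within the controls while its littermates of the same genotype had 122 and 116 CPM. That embryo also had the highest *Neurod2*, *Neurog1*, *Neurog2* and *Neurod1* of the litter. Without it, *Neurod6* was called higher (0.44 ± 0.07, adjusted p = 0.00965, edgeR) and *Neurog1* (-1.05 ± 0.19, adjusted p = 0.0144) and *Neurod1* (-0.41 ± 0.08, adjusted p = 0.0237) lower in the other *Dot1l*-cKO embryos of the litter. Over all genes, calls within litter 1 also rose without it, from 49 higher and 72 lower to 231 and 418. With all embryos *Neurog1* had -0.49 ± 0.3 (adjusted p = 0.471, edgeR) and *Neurod1* -0.16 ± 0.14 (adjusted p = 0.622), and the leave-out values nearest 0, both without Mut_181-2, were -0.163 and -0.0397. *Dot1l*-cKO embryo Mut_181-2 had the lowest *Atoh1*, *Neurog1*, *Neurog2*, *Neurod4*, *Nhlh1* and *Neurod1* and the highest *Neurod6* of the 6 embryos. The same embryo had the lowest summed level of the 8 neural progenitor markers, 2050 CPM where the other 5 embryos had 2160 to 2600 CPM. Embryo Mut_181-3 had 2560 CPM of these markers, and how far the markers account for the members' values was not tested.

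Within litter 2 no member was called either, against 0.202% of all genes. *Neurod6* had a log2 fold change of 0.50 ± 0.12 (adjusted p = 0.121, edgeR) and *Neurod2* of 0.46 ± 0.17 (adjusted p = 0.21), again the 2 members with an unadjusted p below 0.05, as for 17.1% of all genes. DESeq2 again called *Neurod6* and limma-voom called 0 members. Both *Dot1l*-cKO embryos lay above both controls in *Nhlh1*, *Neurod1*, *Neurod2* and *Neurod6* and below both in *Ptf1a*. Such separation of 2 against 2 embryos was seen in 51.7% of all genes. *Neurod1* differed by 0.33 ± 0.17 (adjusted p = 0.341, edgeR), and *Ptf1a* by -0.35 ± 0.32 (adjusted p = 0.599). With litter 2 fitted alone, *Neurod1* (0.34 ± 0.07, adjusted p = 0.0215, edgeR) and *Neurod6* (0.51 ± 0.08, adjusted p = 0.00366) were called and *Neurod2* was not (0.46 ± 0.13, adjusted p = 0.0677). That fit called 747 genes higher and 217 lower of 18786 tested, where the model of 4 groups called 33 and 7. Without Mut_181-3, an embryo of the other litter that enters the shared estimate of spread, *Neurod6* was called here too (0.51 ± 0.08, adjusted p = 0.0165, edgeR). Over all genes 211 were then called higher and 31 lower within litter 2. With *Xist* as a covariate over all embryos, the genotype estimates of *Neurod2* and *Neurod6* were 0.38 and 0.30 and neither passed (adjusted p = 0.25 and 0.21, edgeR). The embryos low in *Xist* are both *Dot1l*-cKO embryos of litter 2, so the covariate cannot separate sex from genotype there. The estimates lay near those of litter 1 fitted alone, 0.39 and 0.33. Over all genes 14 were called higher and 35 lower with the covariate, against 376 and 215 without it.

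**Figure D4:**
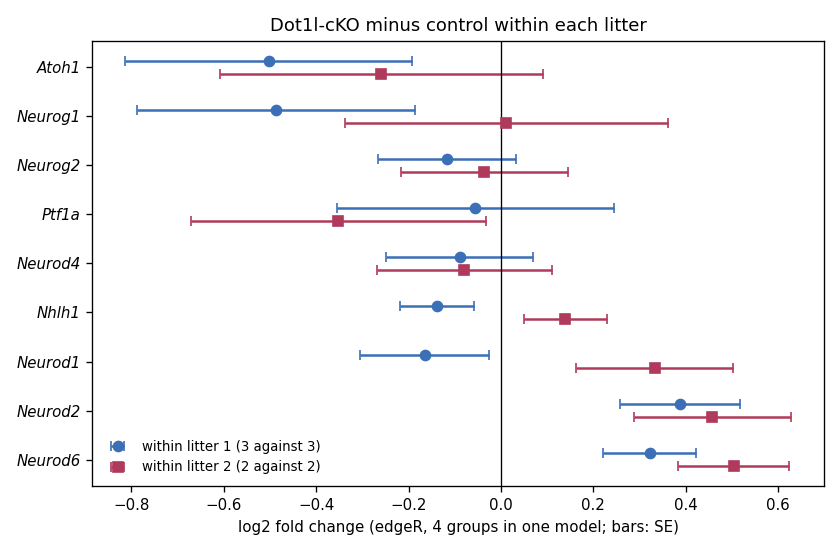
Log2 fold change of *Dot1l*-cKO against control (horizontal axis) within litter 1 (blue circles) and within litter 2 (red squares) for each bHLH factor, from one edgeR model of 4 groups, with bars of 1 SE. *Neurod2* and *Neurod6* lie above 0 in both litters, whereas *Nhlh1* and *Neurod1* lie below 0 in litter 1 (-0.14 and -0.16) and above 0 in litter 2 (0.14 and 0.33).

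With all embryos, no member passed the interaction test by edgeR, for which 0.0101% of all genes were called. *Nhlh1*, with a difference between litters of 0.28 ± 0.12 (adjusted p = 0.601, edgeR), and *Neurod1*, with 0.50 ± 0.22 (adjusted p = 0.604, edgeR), had an unadjusted p below 0.05, as did 8.19% of all genes. DESeq2 and limma-voom each called 0 members. Without Mut_181-3 *Neurod1* passed, at 0.74 ± 0.12 (adjusted p = 0.0276, edgeR). Over all genes 122 were then called higher and 4 lower, against 1 and 1 with all embryos. *Neurod2* had 0.07 ± 0.21 and *Neurod6* 0.18 ± 0.16. Of 9 dorsal root ganglion markers, edgeR called 3 lower in *Dot1l*-cKO embryos within litter 1 and 1 higher within litter 2. For the interaction it called 0, with 9 at an unadjusted p below 0.05, 4 called by DESeq2 and 0 by limma-voom. Their summed level was 844 to 942 CPM in controls and 615 to 790 CPM in *Dot1l*-cKO embryos of litter 1, and 376 to 386 CPM and 460 to 512 CPM in litter 2, with median log2 fold changes of -0.36 and 0.46. *Neurod1*, *Nhlh1* and *Neurog1* had the same signs as these markers in both litters, *Neurog1* with 0.01 ± 0.35 in litter 2. *Neurod2* and *Neurod6* shared the sign in litter 2 only, and *Atoh1*, *Neurog2*, *Ptf1a* and *Neurod4* in litter 1 only. Markers of other attached tissues also differed in the sign of their median between litters, neural crest glia markers (-0.07 in litter 1 and 0.55 in litter 2) and mesenchyme markers (-0.33 and 0.13). Neither list had an interaction call by edgeR or limma-voom, with 4 genes of each at an unadjusted p below 0.05, and DESeq2 called 1 glia marker and 0 mesenchyme markers. Glia markers summed to 193 to 238 CPM in controls and 175 to 223 CPM in *Dot1l*-cKO embryos of litter 1, and to 110 to 124 and 163 to 173 CPM in litter 2. Mesenchyme markers summed to 1580 to 2130 and 1090 to 1720 CPM in litter 1, and to 1100 to 1270 and 1320 to 1510 CPM in litter 2. Sensory ganglia are known to express *Neurod1*, and the part of these tissues in the members' values was not tested.

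The call for *Neurod2* was the less stable of the pair. It was lost without any of 8 of the 10 embryos in turn, kept without *Dot1l*-cKO embryo Mut_181-7 or Mut_190-4, and its log2 fold change ranged from 0.35 to 0.49 over these fits. *Neurod6* kept its call without control Ctr_181-5 or without *Dot1l*-cKO embryo Mut_181-3, Mut_181-7 or Mut_190-4 and lost it without any of the other 6, with log2 fold changes of 0.36 to 0.47. Calls over all genes moved in the same fits, from 376 higher and 215 lower with all embryos. They were 36 and 17 without Mut_190-6 and 963 and 414 without Mut_181-7. Correction for GC content moved *Neurod2* to 0.29 (adjusted p = 0.0737, edgeR) and *Neurod6* to 0.43 (adjusted p = 0.0188).

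**Figure D5:**
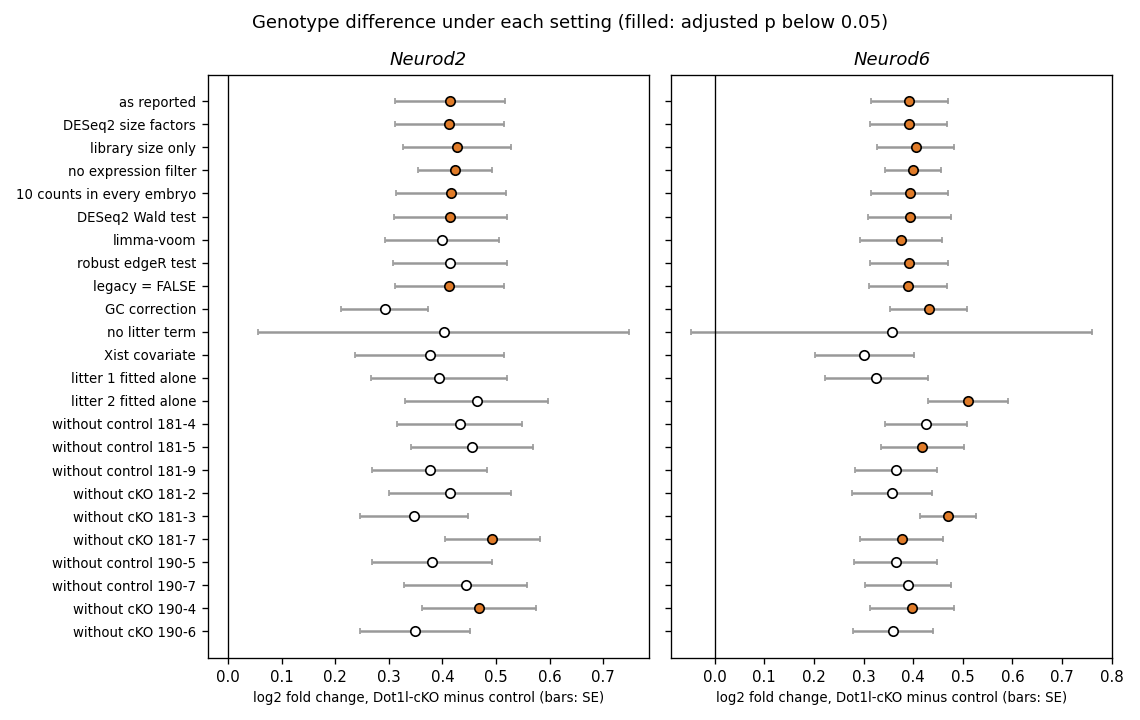
Log2 fold change of *Neurod2* and *Neurod6* between genotypes (horizontal axis, *Dot1l*-cKO minus control) under each processing setting and without each embryo in turn (vertical axis), with bars of 1 SE and filled points where the adjusted p is below 0.05. All estimates lie above 0, between 0.29 and 0.49 for *Neurod2* and between 0.30 and 0.51 for *Neurod6*, while most points without 1 embryo are open.

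Few genes around the bHLH factors were called for genotype, where 2.99% of all genes were called and the all-gene median was -0.01. None of 15 proneural targets was called by edgeR, with 6 at an unadjusted p below 0.05, 2 called by DESeq2 and 0 by limma-voom. The closest were *Cbfa2t3* at 0.21 (adjusted p = 0.0506, edgeR) and *Btbd17* at 0.55 (adjusted p = 0.0528), and their median was 0.04. None of 12 other neural bHLH genes was called, with 4 at an unadjusted p below 0.05 and 2 called by DESeq2 (*Olig1* and *Bhlhe23*). None of 6 Hes and Hey genes was called or had an unadjusted p below 0.05, and of 2 E protein partners DESeq2 called *Tcf12* (-0.21, adjusted p = 0.0735 by edgeR). Limma-voom called 0 genes in these lists. The largest values among the repressors and the other bHLH genes were *Olig1* at 0.61 (adjusted p = 0.0894) and *Hes3* at 0.25 (adjusted p = 0.665). *Id1*, an inhibitor that binds E proteins and keeps them from proneural factors, rose by 0.84 ± 0.18 (adjusted p = 0.0313), from a mean of 13.6 CPM in controls to 24.5 CPM. It was 1 of 4 Id genes called, limma-voom called 0, and *Id3* had 0.54 ± 0.16 (adjusted p = 0.0757).

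None of 4 dI1 genes was called by edgeR or limma-voom, with 2 at an unadjusted p below 0.05 and *Lhx2* called by DESeq2. *Lhx2* stood at -0.39 ± 0.1 (adjusted p = 0.0513, edgeR) beside the -0.40 of *Atoh1*. Of 11 dI4 genes *Gbx1*, a homeodomain factor of dorsal inhibitory neurons, rose by 0.50 ± 0.07 (adjusted p = 0.00463). No early-born factor was called by edgeR or limma-voom, and *Onecut2*, called by DESeq2 and the 1 factor with an unadjusted p below 0.05, had -0.33 (adjusted p = 0.0633, edgeR). The middle-born factor *Zfhx3* fell by 0.38 (adjusted p = 0.0419) and the late-born list split, *Nfix* rising by 0.47 (adjusted p = 0.0163) and *Nfia* falling by 0.24 (adjusted p = 0.0333). *Nfix* and *Gbx1* thus shared with *Neurod2* and *Neurod6* a rise with genotype and a fall in litter 2. Of 8 progenitor markers *Prom1* fell (-0.23, adjusted p = 0.0455) and of 12 pan-neuronal markers *Nefl* fell (-0.22, adjusted p = 0.0284). Among ganglion markers *Runx3* was lower (-0.71, adjusted p = 0.0483), and 2 of 9 lumbar Hox genes were lower. No motor neuron, mesenchyme, muscle, erythroid, endothelial, microglia or forebrain marker was called by edgeR or limma-voom, and DESeq2 called 1, *Kdr*. An unadjusted p below 0.05 was seen for 3 motor neuron markers, 4 endothelial markers and 1 marker each of mesenchyme, erythroid cells and microglia. Muscle markers summed to 21.9 to 23.6 CPM in the controls and 5.82 to 7.42 CPM in the *Dot1l*-cKO embryos of litter 2, and to 1.62 to 18.7 and 1.55 to 17.3 CPM in litter 1. Endothelial markers summed to 223 to 264 CPM in the controls and 178 to 191 CPM in the *Dot1l*-cKO embryos of litter 1, and to 154 to 196 and 155 to 196 CPM in litter 2.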

How the data were processed

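PolyA RNA from 10 lumbar cords was sequenced as paired reads. Per the study's methods, the authors trimmed reads with TrimGalore, mapped them to mm10 with STAR and deposited raw counts per gene from featureCounts on the GENCODE M18 annotation, with 1 column per embryo. Whether counting used strand is not given in the sources used here. No normalization was applied before deposit.

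Counts were tested with edgeR 4.0.16 (R 4.3.3) by the quasi-likelihood F test after filterByExpr, which left 19773 genes, with TMM scaling and Benjamini-Hochberg adjustment at 0.05. One model had genotype and litter terms, and a second had 4 groups of litter and genotype and gave the within-litter, interaction and within-genotype contrasts. CPM values use TMM-scaled library sizes. The depth of 40949585 to 68928443 counts leaves *Ptf1a* and *Atoh1* with the fewest counts. Nothing in the labels says more of the embryos than litter and genotype, and replicates of a group differed by more than counting noise (chi-square per gene 9.31 to 26.2 over 8 pairs). Gene names and positions came from GENCODE M21 (GRCm38), which named 54079 of 54146 identifiers.

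The members were fixed by name. For the lists of related genes and cell type markers, genes called in a comparison were named with their values, or where none was called the largest or nearest to the threshold, and *Tcf12* and *Kdr* were named after their values were seen. For each called member the 3 genes nearest in profile were sought among genes with a mean log2 CPM of at least 1. Members and lists were chosen with earlier results of these data known. Alternatives were DESeq2 1.42.0, limma-voom (limma 3.58.1), other scalings, filters and edgeR settings, GC correction, an *Xist* covariate, models without litter or genotype, each litter alone, and leaving out each embryo. Some genes of the lists are not reported here by name.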

Additional observations from a re-analysis of the deposited data

Results flagged for a closer look

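*Atoh1* in control Ctr_190-7 stood at 3.54 CPM, apart from the other 3 embryos of litter 2, which lay between 2.29 and 2.45 CPM. The gap to its nearest neighbour was 0.87 of the whole range of the litter. This value came from 140 counts. The same check was made on 36 sets of embryos, and chance alone singles out about 1 in 20 such sets.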

How the results depend on the processing

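Litter calls for *Atoh1*, *Neurog2*, *Ptf1a*, *Neurod4*, *Neurod2* and *Neurod6* held under all 21 alternatives run. With the *Xist* covariate *Neurog1* (0.919, adjusted p = 0.0543) and *Nhlh1* (0.164, adjusted p = 0.208) lost theirs. Litter calls over all genes went from 3337 higher and 3521 lower to 2394 and 2445 with that covariate. *Neurod1* passed without the expression filter and without Mut_181-3.

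The 2 members called higher for genotype became 1 under limma-voom, robust edgeR and GC correction, and 0 without a litter term, with the *Xist* covariate or in litter 1 alone, and 0 to 2 when each embryo was left out. Over all genes 0 were called without a litter term. With the *Xist* covariate 14 were called higher and 35 lower, and in litter 1 alone 1 and 11. Within litter 1 the 0 called higher became 2 without the filter and 1 with DESeq2 (0 to 1 on leaving out embryos), and the 0 called lower became 1 without the filter (0 to 2). Within litter 2 the 0 called higher became 3 without the filter, 1 with DESeq2 and 2 in litter 2 alone (0 to 1). For the interaction, 0 became 1 without the filter (0 to 1). Over all 35244 genes tested without the filter, 709 were called higher and 688 lower within litter 1. Within litter 2 these were 1062 and 273, and for the interaction 388 and 49. The calls gained within litters on leaving out an embryo came without Mut_181-3. Leaving out embryos gave 2 to 5 higher litter calls among controls, 2 without Ctr_190-7, and 4 to 7 among *Dot1l*-cKO embryos, 4 without Mut_190-4. Calls over all genes fell as well. Among controls they went from 2362 higher and 2426 lower to 1031 and 1089 without Ctr_190-7. Among *Dot1l*-cKO embryos they went from 1982 and 2237 to 781 and 843 without Mut_190-4.

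Signs changed for uncalled members. For genotype over both litters, *Neurog1* was 0.0158 and *Nhlh1* 0.145 in litter 2 alone, and *Neurod1* was -0.18 with the *Xist* covariate and -0.158 in litter 1 alone. Within litter 2, GC correction gave *Neurog1* -0.178 and *Neurod4* 0.0478. Leaving out embryos gave, over both litters, *Neurog2* -0.161 to 0.00304, *Neurod4* -0.152 to 0.0235, *Nhlh1* -0.071 to 0.0395 and *Neurod1* -0.0636 to 0.133. Within litter 1 it gave *Neurog2* -0.273 to 0.0331, *Ptf1a* -0.299 to 0.15 and *Neurod4* -0.219 to 0.11. Within litter 2 it gave *Atoh1* -0.54 to 0.084, *Neurog1* -0.104 to 0.148, *Neurog2* -0.193 to 0.146 and *Neurod4* -0.245 to 0.0779. The causes were not tested.

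Genotype was matched by litter through the litter term, and embryos were not paired one to one because their numbers are not shared between the groups.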
